A study of Leucocroton havanensis with 4 samples.

Results

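In Leucocroton havanensis, 73 of 65936 contigs stood 2-fold or more above the nickel-free level in nickel-grown root and in nickel-grown shoot, and 42 stood 2-fold or more below it in both. Levels are CPM, the read count of a contig scaled by the total of its library. These 115 contigs are the subject here. A contig is a sequence of a transcript set, and reads were counted on each one. To be a member, a contig needed a mean CPM of 2 or more over the 4 libraries, which 24328 contigs reached. Its CPM with nickel divided by its CPM without nickel, after 0.1 was added to each CPM, had to be 2 or more in both organs, or at most 1/2 in both. The shoot ratio also had to lie above 1/32, a limit that removed 0 of the contigs lower in both organs. The members were thus chosen by the nickel ratios, whose sizes are given as a description without a test.

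This shrub of the spurge family, endemic to Cuba, hyperaccumulates nickel. Plants were grown in vitro on agar-solidified Murashige & Skoog medium for 6 weeks after germination. Root and shoot were each sequenced from nickel-free and nickel-grown plantlets, with 1 library of polyA RNA for each of the 4 groups. The nickel medium held 500 mg/L NiSO4, a dose that the labels state in the same words for every sample and that is assigned here to the nickel-grown ones. How many plantlets went into a library is not stated in the labels. Only the nickel-grown shoot library carries a label as re-analysed data of an earlier deposit. The label does not say whether its plants or sequencing differed, and any such difference cannot be told apart from nickel in the shoot ratios. No difference has a replicate check, and all intervals cover counting error only.

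Nickel hyperaccumulators take nickel up from the soil through the root, load it into the xylem and store it in the shoot, mostly in vacuoles and bound to organic acids. Transporters of divalent metals and of the vacuolar membrane, and the enzymes that make metal-binding ligands, are the functions usually studied in such plants. The files pair no contig with a gene name, so no member can be placed in one of these functions, and the labelled organs could not be checked against marker genes. No sequence of a contig was used here. The libraries held from 55660570 to 98108920 counted reads, and 1 read was worth 0.0102 to 0.018 CPM.

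Most contigs past 2-fold in one organ were not past it in the same direction in the other. In root, 541 contigs (2.22% of 24328) were 2-fold or more higher with nickel and 503 (2.07%) were 2-fold or more lower. In shoot, 1844 (7.58%) were higher and 1162 (4.78%) were lower but above the 1/32 limit. The 73 contigs higher in both organs made up 0.3% of all 24328, 13.5% of the root list and 3.96% of the shoot list. The 42 lower in both made up 0.173% of all, 8.35% of the root list and 3.61% of the shoot list. Of the 541 contigs higher in root, 324 lay within 2-fold in shoot and 144 were lower there. Of the 503 lower in root, 357 lay within 2-fold in shoot and 104 were higher there.

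Independent root and shoot lists of these lengths would share 41 contigs higher in both and 24 lower in both, so the observed numbers were 1.78 and 1.75 times as large. Contigs in opposite directions exceeded independence by more. The 144 higher in root and lower in shoot compare with 27.4, and the 104 lower in root and higher in shoot with 38.1. Here the shoot list of lower contigs, 1232 or 5.06%, was taken without the 1/32 limit. The root and shoot comparisons share no library.

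Summed over classes of abundance in the less abundant organ, the surplus of contigs moving alike was small. The contigs were divided into 10 equal classes by their mean CPM in the organ where they were lower. The part of counting scatter in the overlap was not tested. Independent lists within these classes would share 65.2 contigs higher in both (73 observed) and 40.4 lower in both (42 observed). By the same measure, 43.3 contigs would be higher in root and lower in shoot (144 observed), and 62.5 lower in root and higher in shoot (104 observed). With 10 classes of mean CPM over all libraries, the numbers for contigs moving alike were 55.2 and 27. The classes rest on the same libraries as the ratios, so these numbers are not free of them.

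**Figure D1:**
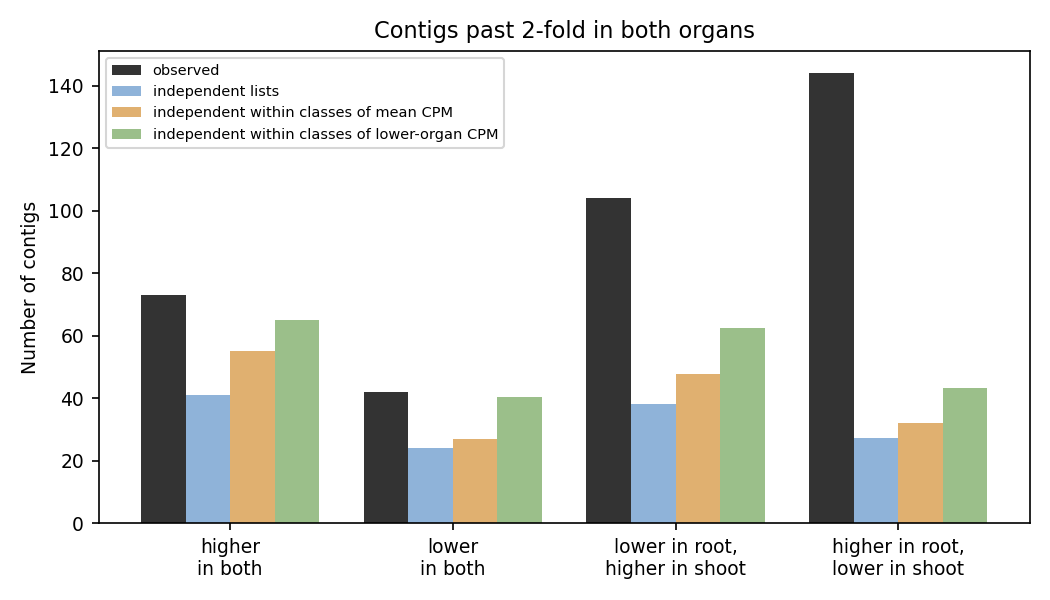
Number of contigs of mean CPM 2 or more past 2-fold with nickel in both organs, by direction (black bars), beside the number that independent lists would share over all contigs, within 10 classes of mean CPM and within 10 classes of CPM in the lower organ. For contigs higher in both (73) and lower in both (42) the last bar nearly reaches the observed one, whereas it stays at 62.5 against 104 and at 43.3 against 144 for the opposite directions.

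The distribution over these classes showed where the members lay. In the lowest class, up to 1.26 CPM in the lower organ, there were 30 contigs higher in both, against 31.2 for independent lists, and 17 lower in both, against 26. In this class 17.3% of contigs were past 2-fold in root and 27.5% in shoot. In classes 2 to 4 the numbers were 26 against 28.4 and 16 against 11.2. In classes 5 to 10, from 5.03 CPM upward, 17 contigs were higher in both, against 5.56, and 9 were lower in both, against 3.24. In the highest class alone, from 49.6 CPM, 2 contigs were higher in both, against 0.168, and 0 were lower in both, against 0.0576. Among these ranges, contigs higher in both thus exceeded independence only in classes 5 to 10. Those lower in both did so in classes 2 to 4 and 5 to 10, all on small counts. The class mean of an organ includes the library where a contig is high, so a high class does not mean coverage in all libraries. A higher contig in classes 5 to 10 had 1 read in shoot without nickel and 1578 with nickel. Contigs in opposite directions outnumbered independent lists in all of these ranges. Those higher in root and lower in shoot numbered 39 against 24.8 in class 1, 65 against 14.2 in classes 2 to 4 and 40 against 4.29 in classes 5 to 10. Those lower in root and higher in shoot numbered 48 against 33.3, 40 against 24.8 and 16 against 4.42.

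**Figure D2:**
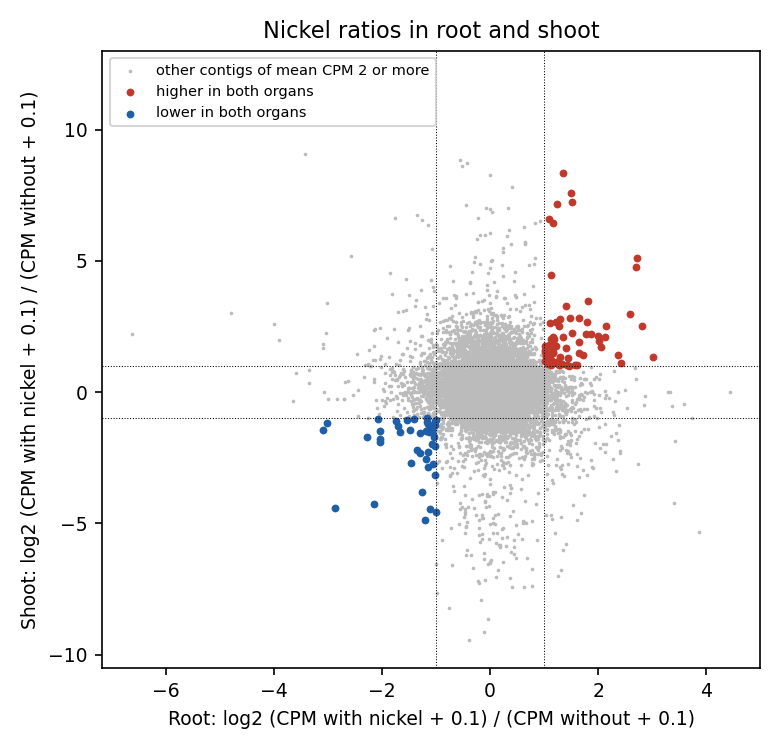
Log2 nickel ratio in root (horizontal) and shoot (vertical), from CPM plus 0.1, for 24328 contigs, each a point, with dotted lines at 2-fold. The 73 contigs higher in both organs (red) reach log2 3.01 in root and 8.36 in shoot, and the 42 lower in both (blue) reach -3.09 and -4.89.

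The balance of higher and lower members depended on the scaling. With library totals, the median log2 nickel ratio over all contigs entered was 0.022 in root and 0.12 in shoot. With edgeR's TMM factors it was -0.12 and -0.13, and with DESeq2 size factors -0.13 and -0.25. By TMM, 38 contigs were higher in both organs and 104 lower, and by DESeq2 size factors 35 and 119, in place of 73 and 42. With each ratio divided by the median ratio of its organ, the numbers were 59 and 64. All 3 scalings placed the same 35 contigs among those higher in both and the same 40 among those lower in both. Another 63 contigs were lower in both organs by TMM and by DESeq2 size factors but not by library totals. The surplus over independent lists was 2.06 and 2 times by TMM and 2.29 and 1.78 times by DESeq2 size factors, for higher and lower contigs.

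**Figure D3:**
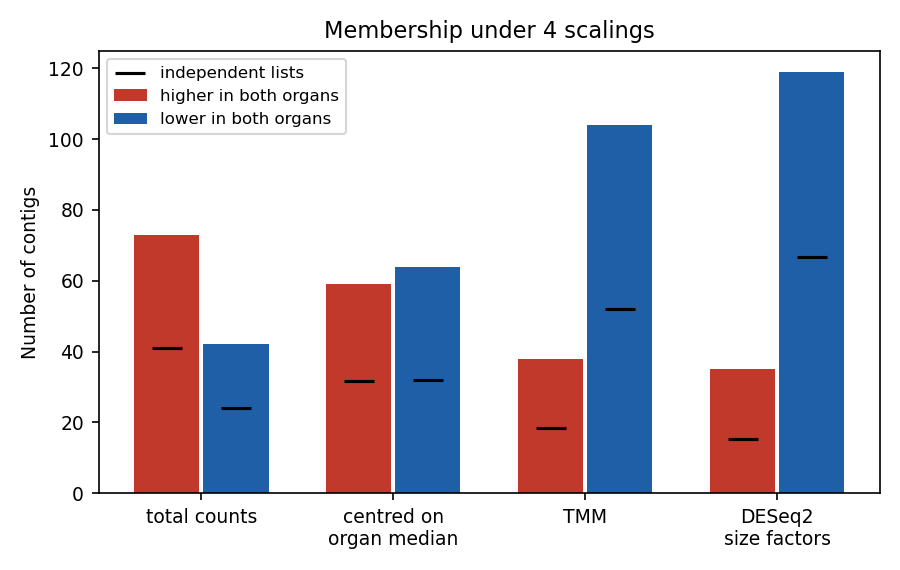
Number of contigs at least 2-fold higher (red bars) or lower (blue bars) with nickel in both organs under 4 scalings, with black marks for the number that independent lists would share. Higher contigs outnumber lower ones by library totals (73 and 42), and lower ones outnumber higher ones by TMM (38 and 104) and DESeq2 size factors (35 and 119).

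Contigs higher with nickel in both organs had a median mean CPM of 3.99, from 2 to 916. Their median level was 1.86 CPM in nickel-free root and 5.14 CPM in nickel-grown root. In shoot it was 1.61 CPM without and 6.79 CPM with nickel. Their summed share of the reads was 0.0415% in nickel-free root and 0.111% in nickel-grown root, and 0.2% and 0.673% in the shoot libraries. In bulk tissue, more cells of a type and more RNA per cell cannot be told apart. The median log2 ratio was 1.28 in root and 1.70 in shoot, against 0.022 and 0.12 over all contigs entered. The change was larger in shoot for 54 of them and larger in root for 19. Shoot ratios were also the wider ones over all contigs entered, with 87.4% within 2-fold in shoot and 95.7% in root.

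**Figure D4:**
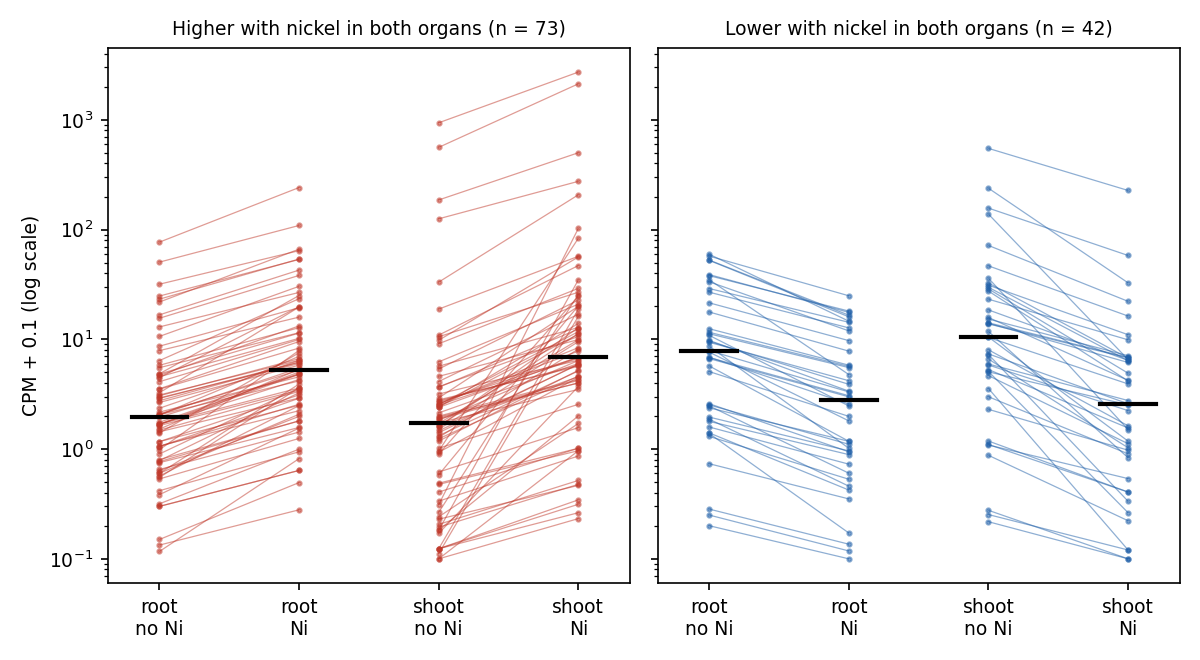
CPM plus 0.1 (log scale) of each member in the 4 libraries, with a line joining the libraries without and with nickel of an organ and a black bar at the median. The contigs higher in both (left, 73) include some that start near 0 in shoot without nickel and end between 3.62 and 102 CPM, and those lower in both (right, 42) start highest at 549 CPM in shoot and 59.5 CPM in root.

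The contigs higher in both organs differed widely in organ. A contig was taken as root-biased or shoot-biased when its CPM plus 0.1 was at least 4-fold higher in that organ both without and with nickel. By this measure 13 were shoot-biased, 15 were root-biased, 27 lay within 4-fold in both conditions and 18 crossed a 4-fold limit between conditions. The corresponding shares of 17.8%, 20.5%, 37% and 24.7% compare with 6.49%, 8%, 74.7% and 10.8% of all 24328 contigs. A larger share of the members was thus organ-biased than of all contigs. The members' lower-organ level was also low, with a median of 1.88 CPM against 7.75 CPM over all contigs, and its part in these shares was not tested.

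The shoot-biased contigs held the most abundant members. Values are not per length, since contig lengths were not used, so ranks in CPM are ranks in reads and not in molecules. Lhav_v2_contig_69 had the highest mean CPM, with 940 CPM (79801 reads) in shoot without nickel and 2722 CPM (267047 reads) with nickel. In root it had 1.34 CPM (80 reads) without nickel and 2.82 CPM (157 reads) with nickel. Both libraries with nickel stood above their counterparts, by 2.90-fold in shoot and 2.03-fold in root. The log2 ratio was 1.53 in shoot (95% exact interval 1.52 to 1.55) and 1.02 in root (0.68 to 1.48). Its root level was 0.142% of its shoot level without nickel and 0.104% with nickel, and the origin of these few root reads was not tested. By TMM and by DESeq2 size factors its root log2 ratio was 0.88 and 0.87, under 2-fold.

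The contig ranked second by mean CPM was well covered in both organs. It stood at 76.8 CPM (4590 reads) in root without nickel and 242 CPM (13442 reads) with nickel. In shoot it stood at 561 CPM (47655 reads) without and 2128 CPM (208742 reads) with nickel. It was 3.14-fold higher with nickel in root and 3.79-fold higher in shoot, and its shoot to root ratio was 7.30 without and 8.81 with nickel. The contig next in rank was 5.17-fold higher in root, from 4.75 to 25 CPM, and 2.69-fold higher in shoot, from 186 to 501 CPM. These contigs ranked first and second took 75% of the reads of all 73 in shoot without nickel and 72.1% with nickel, and 18.8% and 22.1% in root. Without this pair, the remaining 71 summed to 501 CPM in shoot without nickel and 1876 CPM with nickel, and to 337 and 862 CPM in root.

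Contigs with similar levels in root and shoot included one of the clearest differences relative to counting error. The 27 contigs within 4-fold between organs had a median log2 ratio of 1.23 in root (1.01 to 2.60) and 1.60 in shoot (1.01 to 2.99). Lhav_v2_contig_11719 was, of the 73, the contig whose counting intervals lay farthest from no change in both organs. It had 3.16 CPM (189 reads) in root without nickel and 19.6 CPM (1091 reads) with nickel. In shoot it had 1.51 CPM (128 reads) without nickel and 12.7 CPM (1245 reads) with nickel. It was 6.04-fold higher in root and 7.96-fold higher in shoot, and both intervals lay beyond 5.31-fold. Its log2 ratios were 2.60 (95% exact interval 2.41 to 2.86) and 2.99 (2.81 to 3.35). The largest of these 27 by mean CPM had 50.4 and 109 CPM in root and 33.1 and 207 CPM in shoot, without and with nickel.

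In the 15 root-biased contigs the shoot level spanned a wide range, up to 3.56 CPM without nickel and 12.3 CPM with nickel. Their median level was 3.01 CPM in nickel-free root and 7.83 CPM in nickel-grown root, and 0.13 and 0.764 CPM in shoot. By the ratio with 0.1 CPM added, the largest root change among all 73 contigs was in this class. That contig went from 0.886 to 7.83 CPM, a log2 ratio of 3.01, with 2 and 21 reads in shoot. The ranking depends on the added value. A shoot-biased contig with 1 and 40 reads in root had a log2 ratio of 2.81, with a 95% exact interval of 2.86 to 10.8. Reads were absent from shoot without nickel for 2 of the 73 contigs. With nickel they had 85 and 13 reads, 24.5-fold and 3.75-fold above a floor of 3 reads set for shoot without nickel, with 95% exact lower limits of 19.5-fold and 2.64-fold.

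A group of 9 contigs was at least 16-fold higher with nickel in shoot, and each of them crossed a 4-fold limit between organs. In shoot without nickel they had 1 to 73 reads, and with nickel 355 to 10046 reads. The most abundant of them went from 0.212 to 102 CPM in shoot and from 16.6 to 42.7 CPM in root, a log2 ratio of 8.36 in shoot and 1.35 in root. Without nickel its root level was 53.6 times its shoot level (CPM plus 0.1), and with nickel its shoot level was 2.40 times its root level. In all, 7 of the 73 contigs (9.59%) led in root when nickel was absent and in shoot when it was present, a share near the 8.43% of all 24328 contigs. None of the 73 turned the other way, against 5.88% of all contigs, and a larger shoot than root ratio, as 54 of the 73 had, favours the first turn by construction. Any difference that goes with the re-analysed label of the nickel-grown shoot library cannot be told apart from nickel in these values.

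Contigs lower with nickel in both organs had a median mean CPM of 6.39, from 2.2 to 211. Their median level was 7.67 CPM in nickel-free root and 2.69 CPM in nickel-grown root. In shoot it was 10.3 CPM without and 2.46 CPM with nickel. They took 0.0611% of the reads of root without nickel and 0.0223% with nickel, and 0.16% and 0.0467% in shoot. The median log2 ratio was -1.20 in root and -1.54 in shoot. The change was larger in shoot for 27 and in root for 15, and shoot ratios were also the wider ones over all contigs entered. By organ, 13 were shoot-biased, 9 were root-biased, 11 lay within 4-fold in both conditions and 9 crossed a limit. The shares of 31%, 21.4%, 26.2% and 21.4% compare with 6.49%, 8%, 74.7% and 10.8% of all 24328 contigs. Their median level in the lower organ was 1.67 CPM, against 7.75 CPM over all contigs, and its part in these shares was not tested.

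The most abundant of the 42 was Lhav_v2_contig_3795, which was shoot-biased. It had 549 CPM (46622 reads) in shoot without nickel and 227 CPM (22280 reads) with nickel. In root it had 52.3 CPM (3128 reads) without and 15.9 CPM (887 reads) with nickel. Both organs were lower with nickel, by 2.42-fold in shoot and 3.27-fold in root, and the shoot to root ratio was 10.5 without and 14.2 with nickel. The log2 ratio was -1.27 in shoot (95% exact interval -1.30 to -1.25) and -1.71 in root (-1.82 to -1.61).

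Lhav_v2_contig_5395 was the other named contig, as the one whose intervals lay farthest from no change in both organs. It had 34.8 CPM (2084 reads) in root without nickel and 4.67 CPM (260 reads) with nickel. In shoot it had 138 CPM (11732 reads) without and 6.44 CPM (632 reads) with nickel. It was 7.32-fold lower with nickel in root and 21.1-fold lower in shoot, and both intervals lay beyond 6.55-fold. Its shoot to root ratio was 3.96 without nickel and 1.37 with nickel, so the organs differed less with nickel. The next contig by mean CPM, in contrast, had nearly equal levels in the organs, with 52.6 CPM in root and 46.6 CPM in shoot without nickel and 16.5 and 16.2 CPM with nickel.

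Among the organ-biased contigs of this set, reads in the less abundant organ ran from none to 3128. The 9 root-biased contigs had a median of 26.8 CPM in root without nickel and 12.6 CPM with nickel, against 0.989 and 0.122 CPM in shoot. The 13 shoot-biased contigs had a median of 18.4 and 6.05 CPM in shoot, against 1.69 and 0.503 CPM in root. Reads were absent with nickel for 1 contig in root and for 2 in shoot, with 6, 15 and 10 reads without nickel. Against the floor of 3 reads they were 1.86-fold, 5.78-fold and 3.85-fold lower, with 95% exact lower limits of 1.10-fold, 4.14-fold and 2.59-fold.

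**Figure D5:**
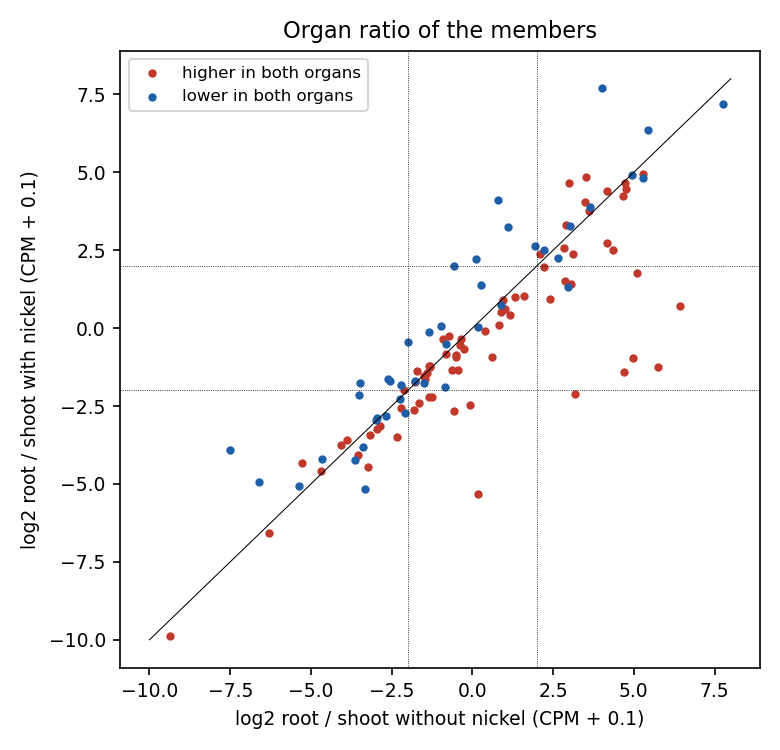
Log2 of root over shoot CPM (0.1 added) without nickel (horizontal) and with nickel (vertical) for the 115 members, with the line of equality and dotted lines at 4-fold. Within 0.5 of the line lie 39 of the 73 red and 19 of the 42 blue points. The 7 red points (9.59%, against 8.43% of all contigs entered) that turned from root to shoot lie right of 0 on the horizontal axis and below 0 on the vertical one.

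The size of the change was modest for most members. In both organs, 15 contigs were at least 3-fold higher and 6 at least 4-fold higher, and 5 were at least 3-fold lower and 2 at least 4-fold lower. None of the 115 was past 8-fold in both. The root and shoot log2 ratios lay within 0.5 of each other for 39 of the 73 higher contigs and 19 of the 42 lower ones. They lay more than 2 apart for 9 and 6.

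The 95% exact intervals describe the depth behind ratios that were already chosen to be 2-fold or more, so they are no test. With every read taken as independent, they excluded a ratio of 1 in both organs for all 115 contigs. They excluded ratios below 1.5-fold for 69 of 73 higher and 37 of 42 lower contigs, and below 2-fold for 35 and 19. Low counts (1 to 20) were even numbers in 55.5% to 61.6% of cases in the 4 libraries. With halved counts, the intervals excluded a ratio of 1 for 69 and 38 contigs. Fewer than 100 reads lay in an organ for 18 higher and 11 lower contigs. These intervals hold no variation between plantlets or libraries.

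A mean of 2 CPM or more in each organ was reached by 34 of the 73 higher contigs and 17 of the 42 lower ones, or 46.6% and 40.5%, compared with 82.3% of all contigs entered. Of these, 21 and 17 were members by all 3 scalings. The 21 had a median log2 ratio of 1.5 in root (1.16 to 2.70) and 2.27 in shoot (1.43 to 8.36). The change was larger in shoot for 20 of the 21, which the selection favours by construction. DESeq2 size factors lowered the median log2 ratio of all contigs from 0.12 to -0.25 in shoot and from 0.022 to -0.13 in root. Membership by all 3 scalings thus asked a larger library-total ratio of higher contigs in shoot than in root. The 17 had a median of -1.25 in root (-2.87 to -1.02) and -1.69 in shoot (-4.44 to -1.0), and the change was larger in shoot for 11. This restriction was chosen after the values were seen. An organ mean can be reached through only the library where a contig is high. The lowest level among the 21 in shoot without nickel was 0.0118 CPM. Among the 17 in shoot with nickel it was 0.163 CPM. Shoot ratios were also the wider ones over all contigs entered.

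The 2-fold limit cut through a continuous distribution. The smaller of the organ folds lay between 2 and 2.2 for 31 higher and 20 lower members. It lay between 1.8 and 2 for 41 contigs higher and 54 lower in both organs that were not members. The member nearest the limit among the higher contigs had 0.953 and 2.80 CPM in root and 1.64 and 3.39 CPM in shoot, a smaller fold of 2.01. The nearest contig outside had 0.334 and 0.988 CPM in root and 2.44 and 4.97 CPM in shoot, a smaller fold of 1.9995. Among the lower contigs, the nearest inside had 9.30 and 4.10 CPM in root and 4.96 and 2.43 CPM in shoot. The nearest outside had 1.32 and 0.611 CPM in root and 5.12 and 1.58 CPM in shoot. Below the mean of 2 CPM, a further 564 contigs were 2-fold or more higher in both organs and 81 lower in both. The lowest member mean was 2.002 CPM and the next one below the limit was 1.98 CPM.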

How the data were processed

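The deposited files give, per the file headers, the read count of each contig in 1 library, as whole numbers without normalization. Per the labels' protocols, RNA was extracted with TRIzol LS, treated with DNase and made into libraries with the Illumina TruSeq Stranded mRNA kit. The aligner, counting program, assembly and filters were not given in the sources used here. Reads shared by near-identical contigs can therefore not be placed with certainty.

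Read counts were divided by library totals to give CPM, and nickel ratios were taken after adding 0.1 CPM. Nickel-free and nickel-grown root totalled 59802565 and 55660570 reads, and shoot 84917997 and 98108920. Each nickel ratio has a 95% exact interval from its pair of counts (Clopper-Pearson on the conditional binomial, without the 0.1). For members with a count of 0, a separate fold was given with a floor of 3 reads, 0.0306 to 0.0539 CPM. The rule's ratios used the count of 0 with 0.1 CPM added, and the intervals used the count of 0 itself. Intervals and floors cover counting error only.

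No test was made, since each group has 1 library and the ratios chose the members. The members, limits and alternatives were chosen with earlier results of these data known. At most 2 contigs per direction are named, the one of highest mean CPM and, of the others, the one whose nearer interval limit, over both organs, lay farthest from 1. Other members described by rank or extreme were chosen after their values were seen. The number for independent lists is the product of the list lengths over the contigs entered. TMM factors came from edgeR 4.0.16 and size factors from DESeq2 1.42.0, with R 4.3.3. Other steps used Python 3.11.15, scipy 1.17.1 and pandas 2.3.3, and were tested on simulated data. Alternatives covered scaling, the value added, abundance minimum, fold limit, counting intervals and thinning.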

Additional observations from a re-analysis of the deposited data

How the results depend on the processing

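Of 72 recalculations of the counts of 73 and 42 contigs and of their ratios to independent lists (1.78 and 1.75), 45 stayed within 1.5 times. The rest are given as contigs higher, then lower, in both organs. TMM gave 38 and 104, DESeq2 size factors 35 and 119, and 1 CPM in place of 0.1 gave 27 and 16. Without an abundance minimum there were 637, which is 0.988 times the number for independent lists, and 123. A minimum of 5 CPM gave 33 higher, and one of 10 CPM gave 20, 2.89 times independence, and 15. A limit of 1.5-fold gave 433 and 238, one of 3-fold 15 (3.61 times) and 5, and one of 4-fold 6 (5.86 times) and 2 (3.16 times). Within classes of lower-organ CPM the ratios were 1.12 and 1.04. Added after the data were seen, 2 CPM in each organ gave 34 and 17, and ratios divided by the organ median gave 64 lower. Stricter limits shorten the lists by construction, and the cause of the other shifts was not tested. Of 32 recalculated log2 ratios of the 4 named contigs, 0 changed direction and 14 left the reported interval. Lhav_v2_contig_69 was under 2-fold in root by TMM (0.88), DESeq2 size factors (0.87) and with 1 CPM added (0.71). No paired analysis was possible because each group has 1 library, and leaving out a replicate was not run because it would remove a group.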
